A study of Mus musculus with 20 samples.

Results

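Mesenteric white fat of mice fed a high fat diet with a nori extract was compared with the same tissue of mice fed that diet with porphyran, the sulfated polysaccharide of the red alga nori, gene by gene across the transcriptome. The comparison uses 2 of the 20 arrays of the study, 1 per diet, and 16724 of the 21154 genes with a symbol on the array entered it because the scanner software marked them well above background with 1 supplement or both. All mice were male C57BL/6J, were 5 weeks old when the diets began and ate them for 13 weeks. HFD is a diet with 60% of its energy as fat, HFD+PP adds 2% by weight of porphyran to it, HFD+Ex adds 2% by weight of the extract, and CD is a control diet with 10% of its energy as fat. Each array held RNA pooled from 7 mice, so the differences rest on 1 pool per diet, without replicates, and carry neither a p-value nor a standard error. The labels and the files give neither the composition of the extract nor how the fat was dissected.

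Mesenteric fat lies along the mesentery between the gut and the pancreas, holds lymph nodes, and drains into the portal vein. Its fat cells store triglyceride and secrete hormones such as adiponectin and leptin, and in obesity it takes up macrophages. Paneth cells sit at the base of the crypts of the small intestine and secrete alpha-defensins and C-type lectins of the Reg3 family, which kill or bind bacteria. Goblet cells secrete the gut's mucus, and enterocytes absorb nutrients. The acinar cells of the exocrine pancreas secrete digestive enzymes, and its islets secrete insulin and glucagon.

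Levels below are log2 signals relative to the 75th percentile of their own array, and differences are HFD+Ex minus HFD+PP on the log2 scale. A gene is said to have risen or fallen when it differed by at least 2-fold (1 on the log2 scale). Where the dimmer array did not show a gene above its background, the difference was taken against the gene's own signal there or the lowest signal that counts as above background, whichever was higher, and is given as "at least". Of the 16724 genes, 148 rose with the extract relative to porphyran (0.885%) and 414 fell (2.48%), 3.36% in all, and the median of all genes was 0.03. At 10-fold the counts were 4 higher and 56 lower. The 101 genes of the fat cell lists and the 112 genes of the lymphoid lists described below stayed within 2-fold. Most falls were in genes of the gut, the pancreas and the liver, and the rises included Il6, Il12a, Il1b and other inflammatory genes, most of them dim.

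The fat label was set beside the fat cell's own genes. All 28 measured members of the white adipocyte list were well above background on both arrays. Detection alone does not mark fat, since all 28 were also measured in brown fat, ileum and colon, and 25 in liver. The mean level of Adipoq was 7.89 in mesenteric fat, 7.78 in brown fat, 1.13 in ileum, 1.80 in colon and −5.25 in liver. It thus set fat apart from gut and liver but not the 2 fats from each other. Adiponectin (Adipoq) stood at 8.11 with porphyran and 8.01 with the extract, and perilipin (Plin1), which coats the lipid droplet, at 5.99 and 6.03. The share of spots well above background was 66.3% with porphyran and 66.2% with the extract, and saturated spots numbered 0. Replicate spots of bright probes (level above 0, 184 probes with porphyran and 187 with the extract) gave a technical standard deviation of 0.0761 for a difference. That value does not cover dimmer genes, which most of the rises were, and it leaves out all variation between mice and pools. Both arrays were on 1 slide, with 3 brown fat arrays, whereas the CD and HFD arrays of mesenteric fat were on another slide, so slide and diet cannot be told apart in the levels of those arrays given below for context.

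**Figure D1:**
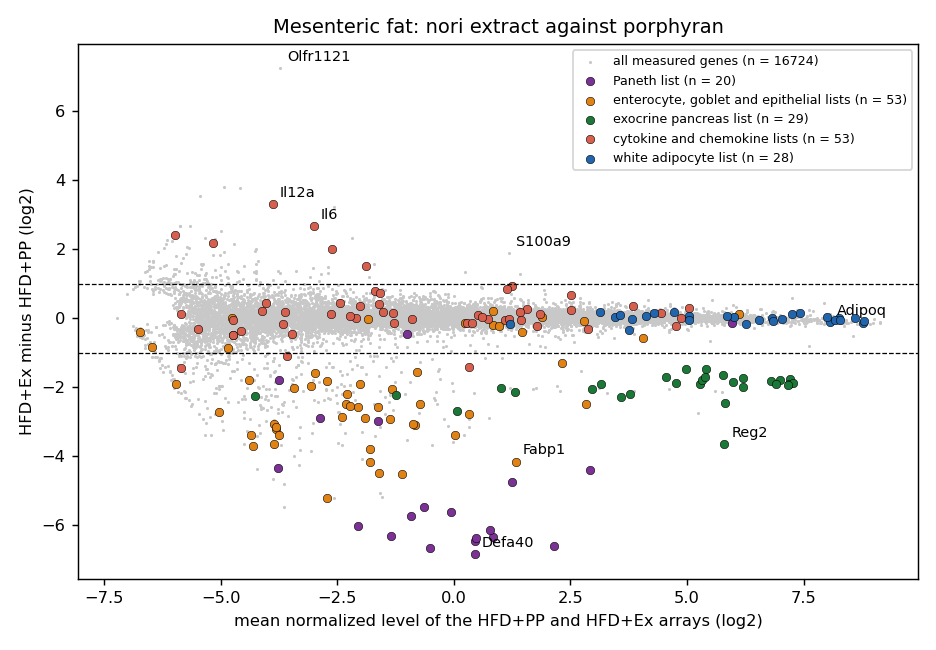
Each point is 1 of 16724 genes, with its mean level over the 2 arrays on the x axis (log2, relative to the array's 75th percentile) and its HFD+Ex minus HFD+PP difference on the y axis (log2, bounds at their bound). Dashed lines mark 2-fold; Paneth genes (purple) reach −6.85, the 29 pancreas genes (green) lie between −3.64 and −1.46, and the 28 white adipocyte genes (blue) lie between −0.33 and 0.20.

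The upstream sequences of 3 genes are shown because the defensins made the largest falls and Il6 a large rise. Each is the 250 bases before the RefSeq start of the gene in GRCm38.p6, on the plus strand. For the 2 defensins the capitals mark ATCAAAG on either strand, the TCF/LEF motif that Wnt signalling reads in Paneth cells; for Il6 they mark a kappaB motif on either strand, which NF-kB reads.
Defa23, chr8:21054790-21055039: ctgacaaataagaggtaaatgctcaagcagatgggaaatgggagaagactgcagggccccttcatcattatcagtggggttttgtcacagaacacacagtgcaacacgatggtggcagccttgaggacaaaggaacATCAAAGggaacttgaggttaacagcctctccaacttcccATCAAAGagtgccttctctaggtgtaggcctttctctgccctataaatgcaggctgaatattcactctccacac
Defa2, chr8:21378267-21378516: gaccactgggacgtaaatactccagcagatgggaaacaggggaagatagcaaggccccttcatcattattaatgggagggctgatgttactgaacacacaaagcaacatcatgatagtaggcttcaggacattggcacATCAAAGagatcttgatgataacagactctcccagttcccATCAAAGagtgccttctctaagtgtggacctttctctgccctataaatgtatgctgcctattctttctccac
Il6, chr5:30012864-30013113: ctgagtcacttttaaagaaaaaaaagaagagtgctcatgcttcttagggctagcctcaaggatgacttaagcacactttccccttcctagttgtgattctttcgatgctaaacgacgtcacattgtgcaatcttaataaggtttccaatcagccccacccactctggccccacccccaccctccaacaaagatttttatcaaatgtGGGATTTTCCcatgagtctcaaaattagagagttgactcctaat
In Defa23 the motif starts 114 and 74 bases before the gene's start, and in Defa2 112 and 72 bases before it. In Il6 it starts 44 bases before. Over all 32851 RefSeq windows of 300 bases (250 before and 50 after a start), 3.73% held ATCAAAG and 1.63% held the kappaB motif. Of the 14 alpha-defensin genes and pseudogenes measured, 6 had a window, and those of Defa2, Defa21, Defa23 and Defa36 held ATCAAAG. Of 10 inflammatory genes that rose (Il12a, Il6, Il1b, Cxcl5, Cxcl2, Cxcl3, Ptx3, S100a9, Timp1 and Spp1), 9 had a window, and those of Il6, Cxcl2 and Cxcl3 held the kappaB motif. A match is a string of letters and no measurement of binding. The windows of Defa2 and Defa21 were identical at 97.7% of bases and those of Defa23 and Defa2 at 69.5%, aligned without gaps. Such close copies share sequence in their transcripts too, so which defensin each probe read is uncertain.

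Of the 20 Paneth genes measured, 18 fell with the extract relative to porphyran and none rose, with a median of −5.66 against 0.03 for all genes. All 13 alpha-defensins on the array fell, by 2.89 to 6.85 on the log2 scale. Defa40 stood at −2.87 on CD, 0.62 on HFD, 3.87 on HFD+PP and −2.97 on HFD+Ex, a 115-fold difference between the supplements. Defa23 stood at −1.21, 2.20, 5.46 and −1.14 in the same order, and its 2 probes gave −6.61 and −6.60. The porphyran array was thus the highest of the 4 and the extract array lay next to the control diet. This held for most of the family, since the porphyran array was the highest in 11 of the 13.

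The exceptions were Defa2 and Defa21. Defa2 stood at −4.52 on CD, 1.14 on HFD, −0.14 on HFD+PP and −3.13 on HFD+Ex, and Defa21 at −7.23 (not well above background), −0.23, −1.43 and −4.32. With the probes used, the high fat diet alone gave the highest array in both genes and the extract lay above the control diet. A second probe of Defa2 stood at 3.37 with porphyran and −2.31 with the extract. Its difference was −5.68 against −2.99 for the one used, so the probes of this gene disagreed in size. Whether the second probe had the same order of diets was not tested.

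The other antimicrobial genes fell too. Reg3g, a lectin against Gram-positive bacteria, stood at −0.20 on CD, 1.19 on HFD, 3.63 on HFD+PP and −1.13 on HFD+Ex. Its neighbours in the family, Reg3b and Reg3a, fell by 4.39 and 5.48 on the log2 scale. Itln1, an intestinal lectin that binds microbial sugars, fell by 5.72. In all 3 Reg3 genes the extract array was the lowest of the 4. Mmp7, the protease that activates mouse alpha-defensins, had a difference of −1.80, and −0.85 after background was modelled differently (normexp). Lyz1, the Paneth cell lysozyme, whose close copy Lyz2 macrophages express, stood at 6.03 and 5.91, and Ang4, an antimicrobial ribonuclease, differed by −0.46. In bulk tissue, fewer cells of a type and less RNA per cell cannot be told apart.

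**Figure D2:**
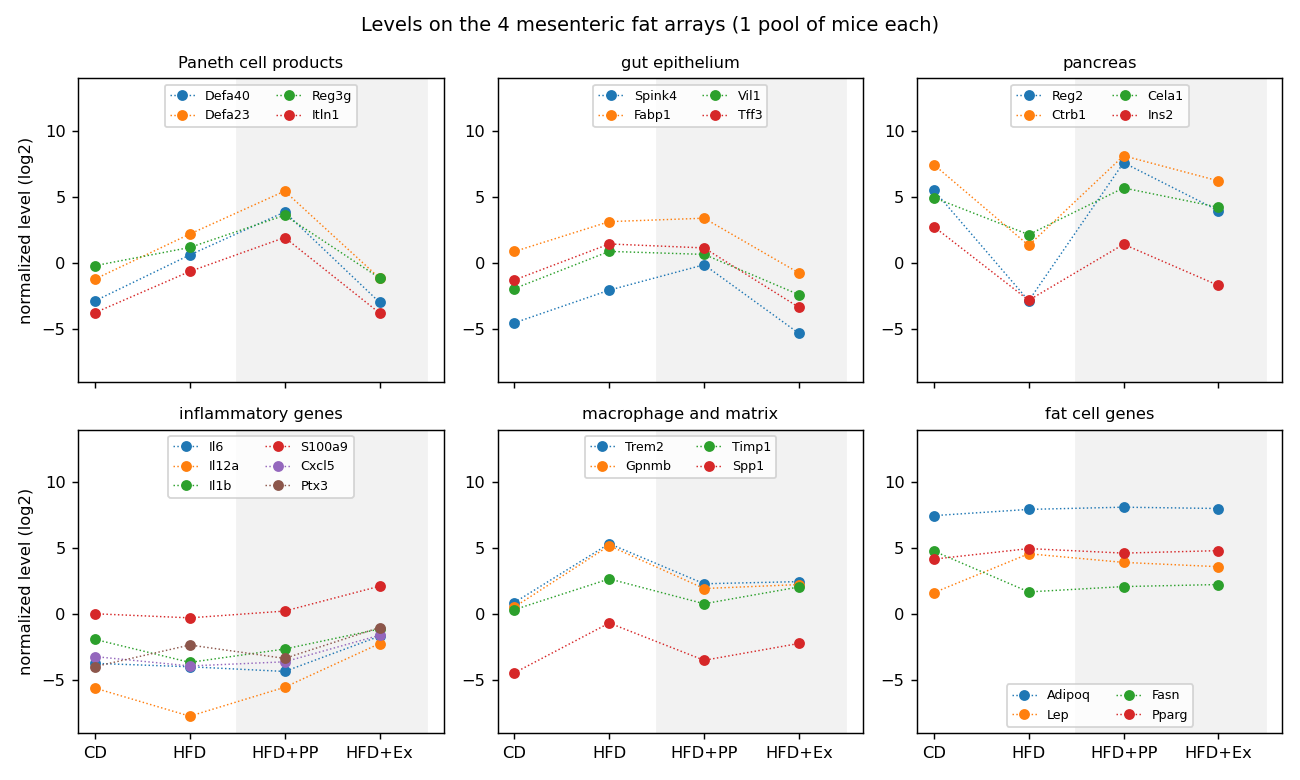
Levels (log2, relative to the array's 75th percentile) of named genes on the 4 mesenteric fat arrays, 1 pool per diet, with the 2 supplemented diets shaded; dotted lines only join the points of 1 gene. Paneth genes peak on HFD+PP (Defa23 at 5.46), pancreas genes dip on HFD (Ctrb1 at 1.34), inflammatory genes are highest on HFD+Ex (Il6 at −1.67), and fat cell genes are level between HFD+PP and HFD+Ex.

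Genes of the rest of the gut lining fell by less. Of 24 enterocyte genes 19 fell and none rose, with a median of −2.57. Fabp1, a fatty acid carrier of gut and liver, stood at 0.88 on CD, 3.14 on HFD, 3.40 on HFD+PP and −0.75 on HFD+Ex. Its intestinal relative Fabp2 stood at 0.64, 4.26, 4.08 and 1.61. Unlike the defensins, these genes were mostly highest on the high fat diet alone (15 of the 18 fallen genes with a value on all 4 arrays), and the extract array was the lowest of the 4 in 17 of those 18. The 5 that did not pass were Anpep at −0.57, Slc15a1 at −0.41, Dpp4 at −0.15, Cyp3a11 at 0.01 and Enpep at 0.20.

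Of 12 goblet cell genes 8 fell and none rose. Tff3, a peptide that helps repair the mucosa, stood at −1.28 on CD, 1.45 on HFD, 1.15 on HFD+PP and −3.36 on HFD+Ex. Muc2, the main gel-forming mucin of the gut, was at least 10.5-fold lower with the extract, since it was not well above background there. Spink4 (−5.21), Fcgbp (−4.49) and Clca1 (−4.15), products that goblet cells release with the mucus, fell further than Zg16 (−1.71), which the acinar pancreas makes too. Of 18 genes of epithelial junctions, keratins and gut transcription factors 12 fell, among them Hnf4a (−3.78), Cdx1 (−3.65) and Cldn3 (−2.48). Of 9 crypt stem cell and Wnt genes none passed in either direction, with a median of 0.04. Of 13 gut hormone genes 3 fell. Gcg was at least 7.27-fold lower, Gip at least 3.04-fold lower, and Pyy stood at −4.02 with porphyran and −5.28 with the extract.

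A second view took genes by where they were high in the study's own arrays rather than by name. Genes at least 16-fold higher in ileum than in mesenteric fat and colon numbered 105, of which 76 fell (72.4%) and none rose, with a median of −2.08. Genes at least 16-fold higher in colon than in mesenteric fat and ileum numbered 44, with a median of −0.01. Of these 5 fell (11.4%, against 2.48% of all genes) and 1 rose (2.27%, against 0.885%). Genes at least 16-fold above fat in both ileum and colon, within 4-fold of each other, lay between, with 127 of 295 lower (43.1%). Genes at least 16-fold higher in liver than in mesenteric fat, ileum and colon had 72 of 339 lower (21.2%) and 5 higher. Those at least 16-fold higher in mesenteric fat than in ileum and colon had 26 of 210 lower (12.4%) and none higher. Those at least 16-fold higher in brown fat than in mesenteric fat had 5 of 109 lower (4.59%) and 2 higher. The falls thus lay with genes of the small intestine more than with those of the colon, though each group exceeded the share of all genes. Mean levels over the mesenteric fat arrays, including the 2 compared, entered these groups, so the counts are a description.

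In the ileum itself the differences in these genes were small. The Paneth list had a median HFD+Ex minus HFD+PP difference of −0.11 in ileum, with 0 of 20 past 2-fold, and the enterocyte list 0.36, with 3 of 24 higher. Defa23 differed by −0.19 there and Reg3g by −0.47. In colon the Paneth list moved the same way as in mesenteric fat but by less. Its median there was −0.97, with 7 of 17 measured members lower and 0 higher. The defensins were dim in colon, with mean levels of −4.61 for Defa40 and −2.83 for Defa23, against 8.85 and 9.62 in ileum. Reg3b differed by −3.13 and Reg3g by −2.92 in colon. The median Paneth gene was 5.77 log2 lower in mesenteric fat than in ileum with porphyran and 11.7 log2 lower with the extract. For enterocyte genes these distances were 5.55 and 9.25. The part that gut tissue in the fat samples had in the differences was not tested.

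**Figure D3:**
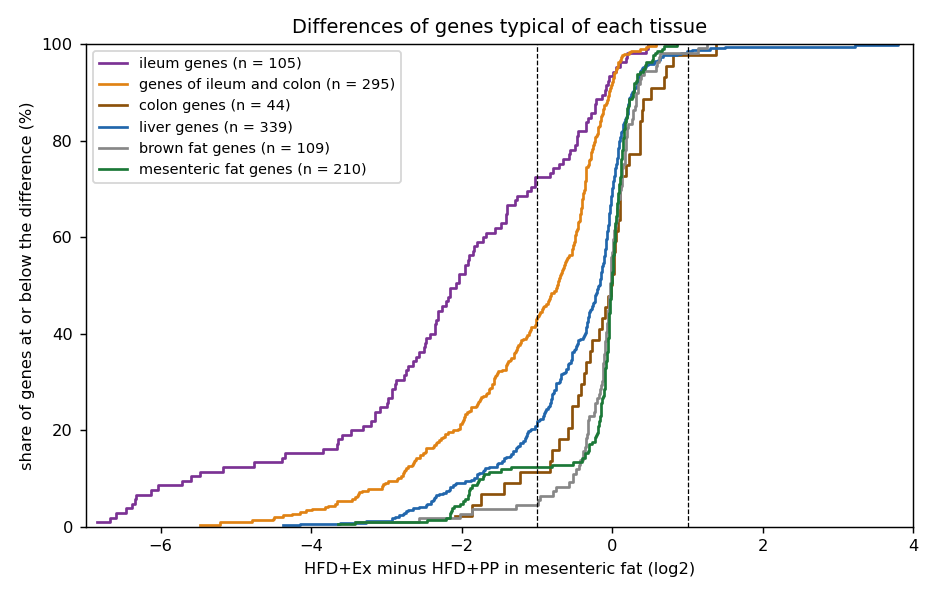
Cumulative share of genes (y axis, %) at or below each HFD+Ex minus HFD+PP difference in mesenteric fat (x axis, log2), for genes at least 16-fold higher in the named tissue. The ileum curve (105 genes) lies furthest left, with 72.4% of genes past the 2-fold line (dashed), against 11.4% for the colon curve (44 genes).

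All 29 exocrine pancreas genes measured fell with the extract, with a median of −1.91 and a range of −3.64 to −1.46. Ctrb1, which encodes the digestive protease chymotrypsinogen, stood at 7.47 on CD, 1.34 on HFD, 8.14 on HFD+PP and 6.23 on HFD+Ex. The elastase gene Cela1 stood at 4.96, 2.16, 5.70 and 4.24. In every one of the 29 genes the porphyran array was the highest of the 4 and the HFD array the lowest, with 26 of them well above background on HFD. The extract lay below CD (median −1.10) and above HFD (median 4.86).

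Within the list the falls were close to each other for most enzymes. The lipase Pnlip fell by 1.72, the carboxypeptidases Cpa1 and Cpb1 by 1.78 and 1.77, and the trypsins Prss2 and Try4 by 1.86 and 1.91 on the log2 scale. Reg2 and Reg1, secreted proteins that rise in stressed pancreas, fell further, by 3.64 and 2.46. Reg2 stood at 5.53 on CD, −2.86 on HFD, 7.61 on HFD+PP and 3.97 on HFD+Ex. Ptf1a and Rbpjl, transcription factors of acinar cells, had differences of −2.25 and −2.70, that of Ptf1a being −0.85 under normexp. Of 11 islet genes 4 fell, all hormones. Ins2 stood at 2.76, −2.82, 1.43 and −1.70 and Ins1 at 2.10, −5.77 (not well above background), 0.76 and −2.75. Amylin (Iapp) was at least 13.2-fold lower and Gcg is given above. The 7 that did not pass lay above 0, up to 0.63. The log2 of the summed relative signal of the pancreas list was 10.9 on CD, 5.37 on HFD, 11.6 on HFD+PP and 9.72 on HFD+Ex, and its part in the other differences was not tested.

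Of 14 liver genes 7 fell and none rose. Their median of −1.02 was −0.71 under normexp and −0.99 under quantile normalization. The fibrinogen chain Fgg stood at −2.17 with porphyran and −4.28 with the extract, the thyroid hormone carrier Ttr at −2.48 and −4.57, and Apoh, a phospholipid-binding plasma protein, at −2.81 and −5.02. Apoc3, an inhibitor of triglyceride clearance, had −1.53 with the probe used and −0.09 with another. Cyp2e1 at 0.14 and Tat at −0.04 did not move with them. Genes chosen after their values were seen gave the same picture for the major urinary proteins, pheromone carriers made by liver, of which 10 of 10 fell (median −2.45). Mup5 fell by 3.61 and Mup1 by 2.30 on the log2 scale.

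Of 21 thermogenic genes 4 fell and none rose, with a median of −0.18. Ucp1, the uncoupling protein of brown and beige fat cells, stood at −3.21 on CD, −2.74 on HFD, 0.01 on HFD+PP and −3.40 on HFD+Ex, 10.7-fold lower with the extract. The porphyran array stood apart from the other 3, which lay close together. Cidea, a lipid droplet protein of the same cells, stood at 2.63 and 2.15, and Cox8b and Cox7a1, subunits of their respiratory chain, differed by −0.34 and −0.36. Prdm16 and Zic1, transcription factors of brown fat cells, differed by −0.02 and −0.01. The other genes that fell were Slc27a2 (−2.57), Fgf21 (−1.35) and Cyp2b10 (−1.27), which liver or gut also express. Under normexp Fgf21 gave −0.83 and Cyp2b10 −0.78. The brown fat arrays of CD, HFD and HFD+PP were on the same slide, and in brown fat itself Ucp1 differed by 0.35.

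Several inflammatory genes were among the 148 that rose, and the 10 named above were picked from several lists because they rose. Il6, a cytokine of stromal cells and macrophages, stood at −3.73 on CD, −3.99 on HFD, −4.34 on HFD+PP and −1.67 on HFD+Ex, 6.37-fold higher with the extract. Il12a, the p35 chain of interleukin 12, stood at −5.60, −7.73, −5.54 and −2.23, and was not well above background on CD and HFD. Il1b, a cytokine processed by the inflammasome, stood at −1.91, −3.65, −2.64 and −1.12. In each the extract array was the highest of the 4, and the 3 other arrays lay well below it for Il6 and Il12a. Under normexp Il6 gave 1.39, Il1b 1.03 and Il12a 0.73.

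Among 25 cytokine genes those 3 rose and Il17a and Il21, both made by T cells, fell. Il17a was at least 2.69-fold lower with the extract and Il21 stood at −3.03 and −4.11. Both were within 2-fold under normexp (−0.67 and −0.66). Tnf, the macrophage cytokine that often moves with Il6, stood at −2.25 and −2.18. Il10, which restrains inflammation, was not well above background with the extract, and its difference of −0.32 is a bound. The list's median was 0.02, so the rises were those of single genes.

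Among 28 chemokine genes 3 rose, all ligands of the neutrophil receptor Cxcr2. Cxcl5 stood at −3.21 on CD, −3.92 on HFD, −3.61 on HFD+PP and −1.60 on HFD+Ex. Cxcl3 was at least 5.30-fold and Cxcl2 at least 4.56-fold higher, with 0.40 and 0.41 under normexp. Ccl7 (0.93), Ccl4 (0.80), Cxcl1 (0.74) and Ccl2 (0.68), which attract monocytes or neutrophils, lay above 0 without passing. Ccl25, the small intestine's T cell attractant, had −1.40 with the probe used and 0.18 with another.

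Neutrophil genes lay above 0 in 14 of 16 cases with a median of 0.41 (0.20 under normexp), and 2 rose. S100a9, a calcium-binding alarmin of neutrophils, stood at 0.03 on CD, −0.28 on HFD, 0.24 on HFD+PP and 2.12 on HFD+Ex. Its partner S100a8, which forms a dimer with it, stood at −0.82, 1.35, 0.17 and 1.03, a difference of 0.87. The 2 partners thus differed in which array was highest. Stfa2l1, a cysteine protease inhibitor of neutrophils, was at least 3.83-fold higher, with 0.28 under normexp. Ltf at 0.80 and Clec4d at 0.76 did not pass, and Csf3r and Trem1, receptors that neutrophils carry, differed by −0.05 and −0.07.

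Matrix and wound genes moved in part. Timp1, an inhibitor of matrix proteases, stood at 0.34 on CD, 2.68 on HFD, 0.79 on HFD+PP and 2.06 on HFD+Ex. Spp1, a matrix protein of macrophages in obese fat, stood at −4.45, −0.67, −3.50 and −2.22, and gave 0.64 under normexp. In both the HFD array was the highest and the extract lay between HFD and porphyran. Ptx3, a soluble pattern receptor, rose by 2.34 and Has1, a hyaluronan synthase, by 1.45, the latter 0.72 under normexp. Mmp13, a collagenase, was at least 2.17-fold higher (0.09 under normexp) and Mmp3 differed by 0.91. The 14 collagen genes of the list did not move with them and ranged from −0.05 to 0.33. Of 35 matrix genes 2 rose, and their median was 0.09. Cyp1a1, the detoxifying enzyme induced through the aryl hydrocarbon receptor, stood at −3.77, −3.25, −3.43 and −1.95, and gave 0.86 under normexp, while Nqo1 differed by 0.02.

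**Figure D4:**
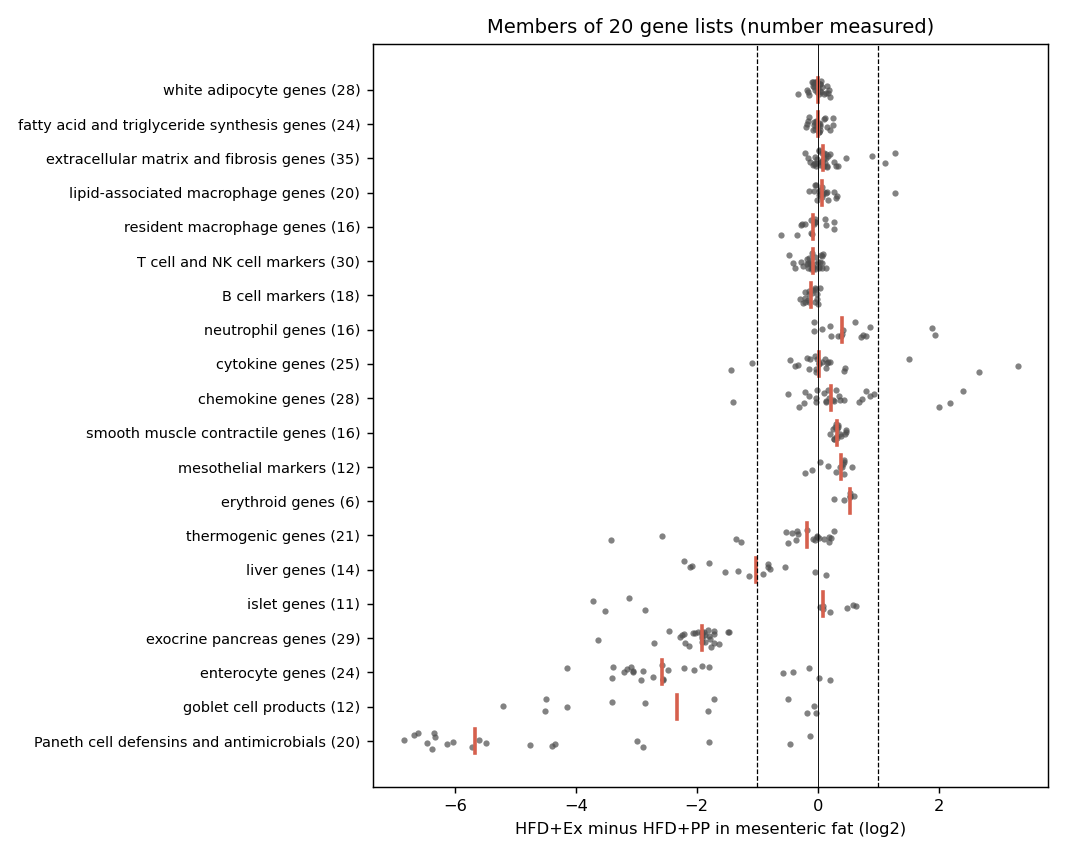
HFD+Ex minus HFD+PP difference (x axis, log2) of each measured member of 20 gene lists (grey points, number in brackets), with the list median as a red bar and 2-fold as dashed lines; vertical scatter within a row carries no value. Medians run from −5.66 for the Paneth list to 0.53 for the erythroid list, and single cytokine and chemokine genes reach up to 3.31.

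Macrophage genes differed little between the supplements. Of 53 genes of lipid-associated, resident and general macrophages 1 rose, Spp1, and none fell. Trem2, the lipid receptor that marks lipid-associated macrophages, stood at 0.89 on CD, 5.35 on HFD, 2.31 on HFD+PP and 2.47 on HFD+Ex. Gpnmb stood at 0.55, 5.19, 1.94 and 2.25. Both supplements lay close together, well below the HFD array. Itgax differed by 0.16, Adgre1 by −0.02, Mmp12 by 0.33, Marco by −0.27 and Timd4 by 0.14.

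Lymphoid genes also lay close together. Of 112 genes of T and NK cells, B cells, germinal centres, lymph node stroma, dendritic cells and MHC class II, none passed in either direction, and they ranged from −0.48 to 0.75. Cd3e, a chain of the T cell receptor complex, stood at 3.56 on CD, 1.01 on HFD, 2.48 on HFD+PP and 2.34 on HFD+Ex, and Ms4a1, a membrane protein of B cells, at 4.56, 0.83, 3.70 and 3.63. In both genes the HFD array was the lowest and the supplements lay close together between HFD and CD. Of 9 plasma cell genes 1 fell, Fkbp11, a chaperone that pancreas acini also use.

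Fat cell genes were level between the supplements. Of 101 genes of white adipocytes, fatty acid and triglyceride synthesis, cholesterol, lipolysis and fatty acid oxidation none passed, with a median of 0.02 and a range of −0.33 to 0.32. Leptin (Lep), the satiety hormone, marked the lower end and stood at 1.63 on CD, 4.58 on HFD, 3.93 on HFD+PP and 3.60 on HFD+Ex. Fasn, which makes fatty acids, stood at 4.79, 1.69, 2.09 and 2.25, Pparg, the master regulator of fat cells, at 4.18, 4.97, 4.63 and 4.82, and Scd1, a fatty acid desaturase, at 8.10, 6.95, 7.11 and 7.13. Pck1 and the glucose transporter Slc2a4 differed by −0.01 and 0.08. Of 22 ceramide and sphingolipid genes 1 fell, the desaturase Degs2 (−1.41), which gut epithelium expresses. Sptlc2, the first enzyme of the pathway, differed by −0.04, the ceramide synthase Cers6 by −0.06 and the sphingomyelinase Smpd3 by 0.02.

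Some lists shifted as a block below 2-fold. All 16 smooth muscle genes lay above 0, between 0.20 and 0.47, with Acta2 at 6.43 with porphyran and 6.70 with the extract. All 6 erythroid genes lay above 0, with a median of 0.53, and the beta globin Hbb-bt at 6.95 and 7.54. Mesothelial genes had a median of 0.39 and 10 of 12 above 0, with Msln at 2.31 and 2.74. Enteric neuron and glia genes had a median of 0.37 and 16 of 19 above 0. Under normexp the medians shrank to 0.28 for mesothelial and 0.23 for enteric genes. Those of smooth muscle (0.33) and erythroid genes (0.49) moved little. Among all genes the median was 0.03. Of the 116 genes of stress and response lists (immediate early, NF-kB, interferon, hypoxia, clock and unfolded protein) none rose and 1 fell, Fgf21. Within them the clock genes lay above 0 in 16 of 17 cases, with a median of 0.20. Fos and Egr1, which react within minutes of handling, differed by 0.25 and −0.01.

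Across the other tissues the same comparison had another makeup. The share of genes past 2-fold was 3.36% in mesenteric fat, 1.87% in liver, 2.75% in brown fat, 3.30% in ileum and 3.15% in colon. The spread of the differences of genes measured on both arrays was 0.130 in mesenteric fat, equal to that of liver and below 0.156 in brown fat, 0.235 in ileum and 0.257 in colon. It is the median absolute deviation scaled to a standard deviation. Il6 and Il12a were not well above background with either supplement in the other 4 tissues. S100a9 stood lower with the extract in ileum, by 1.26 on the log2 scale. Cyp1a1 differed by 1.54 in colon, where it was dim (mean level −4.82).

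**Figure D5:**
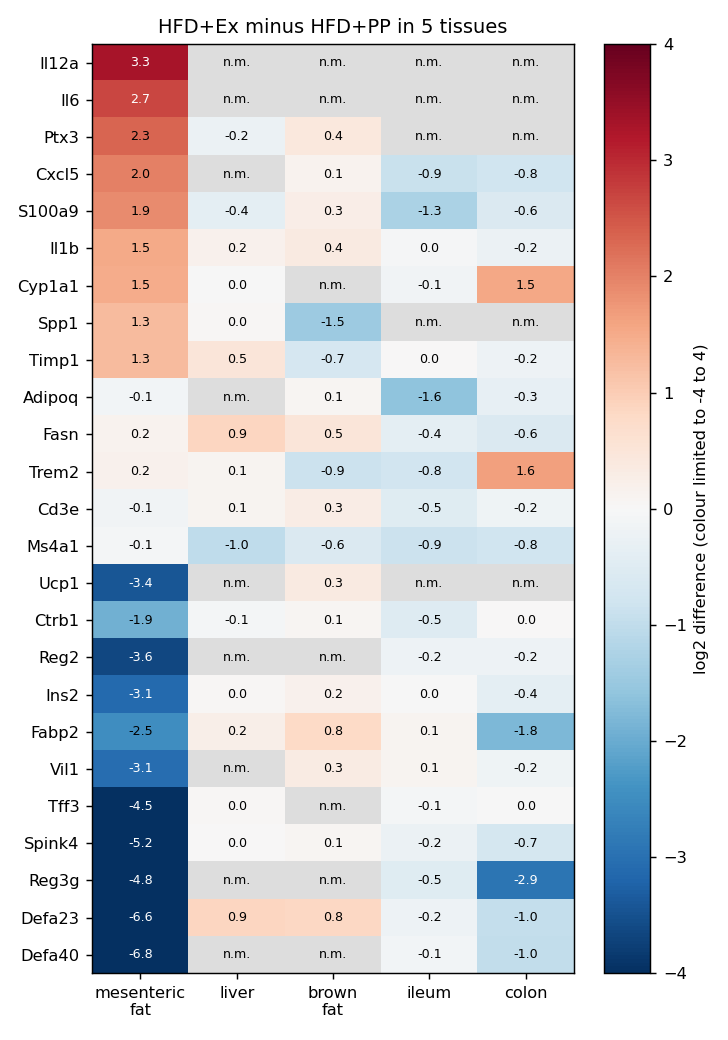
HFD+Ex minus HFD+PP difference (log2) of 25 named genes (rows) in the 5 tissues (columns), 1 array per diet and tissue; n.m. marks genes not well above background on either array. The fall of Defa40 (−6.85) and the rise of Il6 (2.67) stand in the mesenteric fat column, while Defa40 differs by −0.12 in ileum and −0.97 in colon.

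The other rises were mostly dim genes of unlike function. Etnppl, an enzyme of lipid breakdown, stood at −6.01 on CD (not well above background), −4.91 on HFD, −4.19 on HFD+PP and −0.97 on HFD+Ex. It was the second highest rise among genes measured on both arrays. Several genes best known from neurons were among the 20 highest, namely Kcnab3 (2.01), Disp2 (1.56), Calb2 (1.53), Kcnip4 (1.37) and Fstl5 (1.37), of which Disp2 stayed past 2-fold under normexp, at 1.05. Olfr1121, an olfactory receptor gene, lay at background on CD, HFD and HFD+PP and stood at 0.68 with the extract, at least 152-fold higher, from 1 probe, and gave 4.10 under normexp. The next bounds were Sult2a7 (at least 13.9-fold), Nme8 (at least 13.7-fold), Obox1 (at least 11.6-fold) and Rtl4 (at least 6.43-fold), all within 2-fold under normexp. Arg1, an arginase of macrophages chosen after its value was seen, rose by 1.30.

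Some enzymes of detoxification fell. Adh6a, an alcohol dehydrogenase, stood at −1.60 on CD, 0.87 on HFD, 0.95 on HFD+PP and −4.10 on HFD+Ex. The alpha class glutathione transferase Gsta2 fell by 3.32 on the log2 scale, and its relatives Gm10639 and Gm3776 by 5.21 and by at least 44.8-fold, while the other 2 of the 5 genes of this class measured did not pass. In these 3 the extract array was the lowest of the 4. All 3 had higher mean levels in ileum than in mesenteric fat, Gsta2 at 2.50 against −2.80, as did Adh6a at 2.71 against −0.97. The 3 transferases were also higher in liver and colon than in mesenteric fat, Gsta2 at 4.04 and 2.20, so ileum was not singled out. Adh6a stood at −5.01 in liver and −0.66 in colon. Of 17 measured targets of NRF2 and the aryl hydrocarbon receptor 1 rose, Cyp1a1, and 1 fell, Gsta2, with a median of 0.06. Lypd8, a protein that keeps bacteria away from the colon's lining, was at least 27.7-fold lower. Saa2, an acute phase protein chosen after its value was seen, fell by 4.07, whereas Saa3, made by fat cells and macrophages, differed by 0.82.

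The dimness of the rises limits them. Of the 148 genes that rose, 101 had a level below −4 on their brighter array, 103 were bounds, and only 4 lay above 0, against 99 of the 414 that fell. With background modelled by normexp, 10 rose and 230 fell, so that rises made up 4.17% of the changed genes in place of 26.3%. Without genes of gut, pancreas and the other listed tissues, 133 rose and 118 fell.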

How the data were processed

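RNA of mesenteric fat was measured on 1-colour Agilent arrays. Per the file headers, the deposited intensity of each spot is the processed signal of Agilent Feature Extraction 11.5.1.1, already background-subtracted and detrended within the array by the authors' scanner software, with no scaling between arrays. The authors' series matrix holds these intensities times 1 factor per array (log2 1.23 for HFD+PP and 1.02 for HFD+Ex, column medians 102.3 and 98.5); it is linear and uncentred, and what the factor was set to is not stated.

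From these, log2 signals were centred on each array's 75th percentile over the 59305 spots left without 3671 controls; 139 and 147 spots with outlier flags were left out. Probes were named through RefSeq accessions (28026 of 55681 matched; the file headers name another genome build, so no array coordinates are given), and a gene took its probe with the highest mean signal over the 20 arrays. Promoter windows are RefSeq's, GRCm38.p6.

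A change was a difference of at least 2-fold, with bounds as described. No p-value was computed, because each group was 1 array. The counting was checked on simulated data with the same noise at every level. The changes set there were all in probes brighter than most genes that rose, so the check does not cover dim rises. Alternatives were normexp background correction (limma 3.58.1, offset 50, on median signals in place of the planned mean signals), quantile normalization, the authors' values, scaling to bright probes, other filters, thresholds and probe rules, and leaving out genes of other tissues.

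Genes named were the 20 highest and 20 lowest differences measured on both arrays, up to 5 bounds per direction, up to 5 changed members of each of 44 lists, every member of the Paneth, cytokine and pancreas lists, and a fixed set of fat, immune and gut genes, 176 in all. Some genes that this rule names are not reported here. Other names, such as list members within 2-fold, were chosen after their values were seen. The members and lists were chosen with earlier results of these data known.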

Additional observations from a re-analysis of the deposited data

Results flagged for a closer look

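Named genes that passed 2-fold one way in mesenteric fat and the other way in another tissue are given here; each rests on 1 array per diet and tissue, and no difference between tissues was tested. Among pancreas genes, Pnliprp1 was at −1.80 in mesenteric fat and 1.08 in ileum, Pnliprp2 at −2.03 and 1.34, and Rnase1 at −1.92 and 1.21. Pnlip was at −1.72 in mesenteric fat and 1.32 in colon, and Sycn at −1.87 and 1.98 in liver. Pnlip was close to background in colon, with a mean level of −5.62 there against 4.74 in mesenteric fat.

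The next genes were lower with the extract in mesenteric fat and higher in brown fat. Fabp1 was at −4.15 in mesenteric fat and 1.67 in brown fat, Apoh at −2.21 and 1.09, Fgg at −2.11 and 1.78, and Ttr at −2.09 and 1.5. Fgb was at −1.79 in mesenteric fat, 1.79 in brown fat and 1.87 in colon. The 2 brown fat arrays were on different slides.

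In ileum, Aadac was at 1.46 against a bound of −4.38 in mesenteric fat, 9030625G05Rik at 1.07 against a bound of −4.65, and Treh at 1.01 against −3.16. Cyp2b10 was at −1.27 in mesenteric fat, 1.19 in ileum and 2.36 in colon, where it was dim (mean level −4.76).

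Among genes that rose in mesenteric fat, S100a9 was at 1.88 there and −1.26 in ileum, Spp1 at 1.28 and −1.46 in brown fat, Kcnab3 at 2.01 and −1.01 in liver, and Nme8 at a bound of 3.78 and −1.47 in colon. Kcnab3 in liver and Nme8 in colon were dim, with mean levels of −4.48 and −5.57.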

How the results depend on the processing

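The main counts were 148 genes higher and 414 lower with the extract. They were 10 and 230 with normexp background correction, whose offset of 50 shrinks differences of dim genes by construction, 434 and 855 with no filter on dim probes, 480 and 694 at 1.5-fold, and 42 and 282 at 3-fold. Asking for signal well above background on both arrays left 45 and 298. Leaving out genes of other tissues gave 133 and 118, and with liver genes left out too, an alternative chosen after seeing the data, 129 and 75; both hold fewer falls because the genes left out are where most falls lay. Rises made up 26.3% of the changed genes, 34.0% with quantile normalization (210 and 408), 33.7% without the filter, 13.1% on both arrays and 53.0% without other tissues.

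The authors' values (148 and 417), scaling to bright probes (148 and 412) and the median over probes (151 and 416) stayed within 1.5 times. Among the 44 lists and the 176 named genes, none with a difference past 2-fold changed sign under the alternatives run; medians near 0 of the islet, white adipocyte, fatty acid synthesis and cytokine lists did, as did some named genes within 2-fold. Of 123 changed named genes, 90 stayed past 2-fold with normexp, and 121 with the median over probes, the others being Apoc3 (−0.81) and Ccl25 (−0.61). Of 6 lists with a median past 2-fold, 5 stayed with normexp and with quantile normalization, the liver list being the exception.

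No paired analysis was possible because each group was 1 array, and no replicate could be left out for the same reason. Signal over background limits the rises: the median level of the 148 on their brighter array was −4.64, against 0.19 for all genes.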

Other observations

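Probes without a gene symbol entered none of the counts above. Of 15371 such probes measured in mesenteric fat, 303 were at least 2-fold higher with the extract (1.97%) and 262 lower (1.70%), and they ranged from −6.64 to 4.64 on the log2 scale.

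Of the 148 genes that rose, the extract array was the highest of the 4 mesenteric fat arrays in 105, and at least 2-fold above both CD and HFD in 66. Porphyran was at least 2-fold below both in 7. Of the 413 fallen genes with a value on all 4 arrays, porphyran was the highest in 268 and at least 2-fold above both CD and HFD in 114, and the extract was at least 2-fold below both in 72. The CD and HFD arrays were on another slide.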
